A study of Mus musculus with 40 samples.

Results

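The mitotic genes described here are 34 protein-coding genes named by symbol, from cyclin B and the mitotic kinases to the motors and scaffolds of cytokinesis. They were chosen for their known roles in cell division, with earlier results of these data known. All 34 symbols were found in the count files of both stages, among 29787 symbols kept. Cenpa, which encodes the histone variant that marks centromeres, was listed at 0 in all 40 libraries. By counting error alone, a 0 allows up to 0.154 CPM in the shallowest library. The annotation used for counting is not given, so absent RNA and reads not assigned to Cenpa cannot be told apart. Cenpa is not described further. The other 33 genes had counts in every library, and all 33 entered the tests together with the other genes, 14081 in all. The study sequenced poly(A) RNA of 20 lines of immortalised brown adipose cells from C57BL/6 mice at passage 6 to 12, with 1 undifferentiated library and 1 library after 8 days of differentiation per line. Differentiation was started with IBMX, dexamethasone, indomethacin, T3 (triiodothyronine, a thyroid hormone) and insulin, and the later medium held T3 and insulin. Both stages are therefore immortalised cells, each line is a single culture lineage, and line names consist of a letter from A to D, whose meaning the labels do not give, and a number.

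Mitosis divides the replicated chromosomes between the daughter cells. Cyclin B and its kinase start it, kinetochores attach chromosomes to spindle microtubules, the spindle checkpoint delays anaphase until attachment is complete, and the central spindle places the cleavage furrow. Transcripts of these genes are abundant in the G2 and M phases and low in cells that have left the cycle, which is why several serve as proliferation markers. Cultured preadipocytes divide, and adipocytes are held to be post-mitotic, while cell lines can go through a few divisions early after induction.

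Most promoters of this gene class are known for an element called CHR (cell cycle genes homology region), bound by MuvB complexes that hold genes down in quiescent cells and, with B-Myb and FOXM1, raise them in G2. CCAAT boxes, bound by NF-Y, often lie upstream of it. RefSeq promoter windows on the mouse build GRCm38.p6, from 250 bases before to 50 bases after each start, were found for 28 of the 34 genes; Ccna2, Foxm1, Aurkb, Incenp, Tpx2 and Kif20a had no entry. The letters TTTGAA or TTCGAA, on either strand and hereafter called a CHR match, were present in 22 of the 28 windows (78.6%), against 19.4% of 27025 promoter windows of the same length. CCAAT on either strand was present in 21 of the 28, against 37.9% of all windows. Both were present in 19 (67.9%), against 7.70%. These matches describe letters in a window and are not measured binding sites. For CHR only TTTGAA and TTCGAA were searched, so a window without a match is not shown to lack the element. The 6 windows printed here belong to the 3 genes whose transcripts fell most by day 8 (Kif23, Espl1 and Bub1) and to the 3 genes that did not fall (Ccnb1, Ccnb2 and Nusap1). Sequences read 5′ to 3′ on the strand of the gene, with CHR matches and CCAAT boxes (ATTGG on the other strand) in capitals.
Kif23 (chr9:61946750-61947049, minus strand): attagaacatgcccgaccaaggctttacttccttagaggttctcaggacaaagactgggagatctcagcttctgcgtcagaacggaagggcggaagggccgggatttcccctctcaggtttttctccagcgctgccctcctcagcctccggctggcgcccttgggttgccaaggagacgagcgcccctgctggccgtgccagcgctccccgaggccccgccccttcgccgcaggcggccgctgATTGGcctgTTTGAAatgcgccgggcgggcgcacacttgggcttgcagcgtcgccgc
Espl1 (chr15:102296043-102296342, plus strand): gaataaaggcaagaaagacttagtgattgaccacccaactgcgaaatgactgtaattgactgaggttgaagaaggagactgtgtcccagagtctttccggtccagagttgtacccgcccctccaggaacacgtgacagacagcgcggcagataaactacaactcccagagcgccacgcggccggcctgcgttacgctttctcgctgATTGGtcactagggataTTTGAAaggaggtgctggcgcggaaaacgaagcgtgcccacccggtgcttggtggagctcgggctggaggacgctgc
Bub1 (chr2:127831810-127832109, minus strand): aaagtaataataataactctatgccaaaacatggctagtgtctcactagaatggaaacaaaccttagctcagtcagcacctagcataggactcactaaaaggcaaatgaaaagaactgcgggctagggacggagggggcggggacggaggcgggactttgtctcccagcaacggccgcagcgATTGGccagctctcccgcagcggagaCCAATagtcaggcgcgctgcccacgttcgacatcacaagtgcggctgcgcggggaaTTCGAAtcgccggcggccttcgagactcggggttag
Ccnb1 (chr13:100786437-100786736, minus strand): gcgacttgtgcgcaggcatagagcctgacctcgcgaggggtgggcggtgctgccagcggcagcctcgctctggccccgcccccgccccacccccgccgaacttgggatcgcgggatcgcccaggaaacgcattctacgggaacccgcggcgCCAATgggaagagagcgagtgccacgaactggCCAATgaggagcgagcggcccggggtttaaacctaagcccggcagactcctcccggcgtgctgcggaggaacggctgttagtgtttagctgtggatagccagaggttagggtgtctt
Ccnb2 (chr9:70421505-70421804, minus strand): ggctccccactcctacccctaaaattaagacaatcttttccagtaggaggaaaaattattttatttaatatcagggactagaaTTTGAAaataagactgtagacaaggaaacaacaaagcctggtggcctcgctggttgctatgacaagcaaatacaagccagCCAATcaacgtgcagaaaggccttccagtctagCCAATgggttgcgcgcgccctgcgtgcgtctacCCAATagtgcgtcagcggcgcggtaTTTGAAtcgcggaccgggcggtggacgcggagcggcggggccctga
Nusap1 (chr2:119618048-119618347, plus strand): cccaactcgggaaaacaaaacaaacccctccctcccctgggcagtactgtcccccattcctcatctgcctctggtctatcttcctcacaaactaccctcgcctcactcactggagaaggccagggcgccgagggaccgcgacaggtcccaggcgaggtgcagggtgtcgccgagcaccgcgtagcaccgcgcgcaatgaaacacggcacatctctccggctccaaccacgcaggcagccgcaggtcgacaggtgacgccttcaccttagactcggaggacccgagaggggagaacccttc
The windows of Kif23, Espl1 and Bub1 hold 1 CHR match each, and the Kif23 match lies next to a reversed CCAAT box. Ccnb2, which did not fall, holds 2 CHR matches and 3 CCAAT boxes, so a match did not separate the genes that fell from those that did not. Ccnb1 holds 2 CCAAT boxes and no CHR match, and Nusap1 holds neither. Among measured genes with a window, the 21 with a CHR match had a median log2 fold change of -1.07, from -1.94 to -0.14, and in 19 of them a match lay within 50 bases of the start. In the 6 without a match (Birc5, Ccnb1, Cenpe, Melk, Nuf2 and Nusap1) the median was -0.83, from -1.56 to 0.29, so the ranges overlapped. No test was made of this difference.

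Counts assigned to genes were 19535806 to 28074918 per undifferentiated library and 27181830 to 43113838 per day 8 library. Levels are given as CPM, the count of a gene relative to the library total after scaling by edgeR's TMM factors. All 23 genes of a list of adipocyte markers rose by day 8, and their mean log2 CPM is used as an adipocyte score for each line. That score was lowest in C6 (4.68) and D5 (7.39), while the other 18 lines lay between 8.60 and 9.84, so results that rest on the score are given with and without these lines. Of the markers of other cell types, the 6 listed immune genes found in the files summed to at most 9.17 CPM at day 8, highest in B3, with Ptprc at most 0.13 CPM. The 5 endothelial genes summed to 0.716 to 32.4 CPM, highest in C6, the 6 skeletal muscle genes to 1.07 to 17.8 CPM, highest in B3, and the 5 Schwann and neural genes to 6.93 to 44.7 CPM, highest in C2. The 10 preadipocyte and mesenchymal genes were far more abundant, at 327 to 1758 CPM before differentiation and 300.5 to 2621 CPM at day 8, highest in C6 and lowest in D4. Of the 8 tested, 5 rose and 2 fell by day 8. The part of these cell types in the results was not tested. Tallies of unaligned and low-quality reads were above 0 in 20 of 20 undifferentiated files and in 0 of 20 day 8 files, so a difference in counting and the stage cannot be told apart.

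The main comparison asks how the mitotic transcripts changed between the undifferentiated culture and day 8. Of the 33 measured genes, 30 fell, 1 rose (Ccnb1) and 2 did not pass the test (Ccnb2 and Nusap1), at an adjusted p of 0.05 from the quasi-likelihood test of edgeR (Benjamini-Hochberg over 14081 genes). Of all genes tested, 38.4% fell and 43.6% rose. The median log2 fold change was -1.07 over the mitotic genes and 0.06 over all genes. In the 30 genes that fell, the mean day 8 level was 26.1% to 70.1% of the undifferentiated level, with a median of 46.9%, so their transcripts remained well above 0. For 29 of the 30, day 8 was lower than undifferentiated in all 20 lines, and Nuf2 was lower in 19. In 21 of the 33 (63.6%), every day 8 library lay below every undifferentiated library, which held for 9.47% of all genes. In bulk RNA, fewer cells in mitosis and less RNA per dividing cell cannot be told apart. Each value is 1 library per line, so the spread over 20 lines includes both line and culture.

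**Figure D1:**
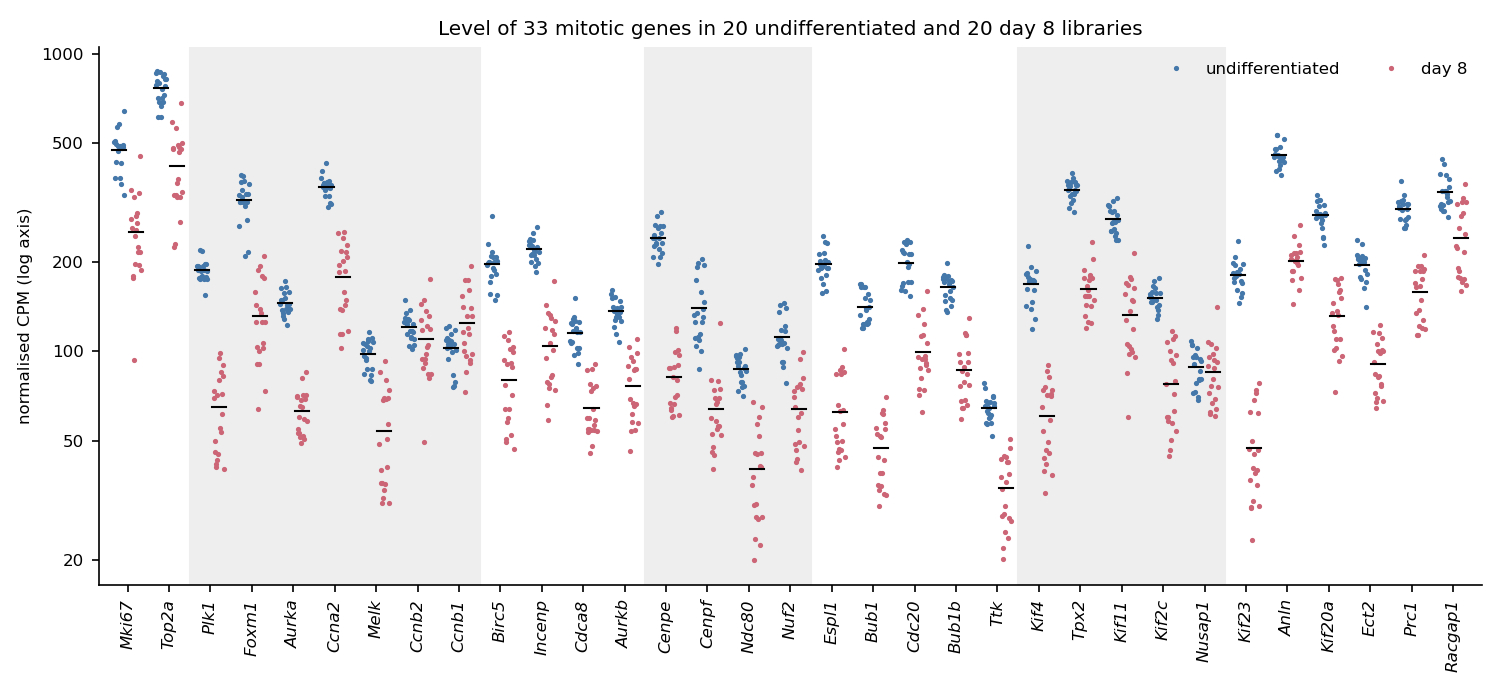
Normalised CPM on a log axis for 33 mitotic genes in 20 undifferentiated (blue) and 20 day 8 (red) libraries, ordered by role in alternating shaded blocks (cycling markers, mitotic entry, passenger complex, kinetochore, checkpoint, spindle, cytokinesis), with 1 point per library and a black bar at the mean. Red lies below blue for most genes, without overlap in 21 of the 33, while Ccnb1, Ccnb2 and Nusap1 overlap broadly.

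Both markers of cycling cells fell. Mki67 encodes Ki-67, a coat of mitotic chromosomes that is used as a proliferation marker. Its undifferentiated level ran from 335 to 642 CPM with a median of 488, and its day 8 level from 93.3 CPM in B3 to 454 CPM in D4 with a median of 250. The groups overlapped, and the top day 8 library was close to the undifferentiated median. Its log2 fold change was -0.92 (SE 0.11, adjusted p = 1.77e-09). In D4 the log2 difference was -0.10, and in B3 it was -2.60. Top2a, the topoisomerase that untangles sister chromatids, ran from 614 to 872 CPM before differentiation and from 224 CPM (B1) to 683 CPM (D4) at day 8, with medians of 781 and 424. It fell by 0.87 on the log2 scale (SE 0.10, adjusted p = 4.17e-10).

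The genes of mitotic entry gave the widest range of responses, with 5 of 7 falling and the pair of B-type cyclins standing apart. Plk1, the polo-like kinase that drives centrosome maturation and mitotic entry, ran from 155 to 220 CPM (median 187) in undifferentiated cells and from 40.3 CPM in D6 to 98.4 CPM in C5 (median 65.7) at day 8. These groups did not overlap, and Plk1 had the steepest fall of the role, a log2 change of -1.53 (SE 0.10, adjusted p = 3.40e-17). Foxm1, the transcription factor that activates late cell cycle genes, ran from 209 to 393 CPM (median 324) and then from 64.0 CPM in B3 to 209 CPM in D4 (median 126). The groups just touched, and the log2 fold change was -1.29 (SE 0.12, adjusted p = 2.94e-13). Aurka, the Aurora kinase of spindle poles, was the most even of the role at day 8, from 49.2 to 85.5 CPM against 122 to 173 CPM before. Its log2 fold change was -1.20 (SE 0.06, adjusted p = 8.46e-21). Ccna2, the cyclin of S phase and G2, fell by 1.01 on the log2 scale (SE 0.09), from 358 ± 29.3 to 178 ± 48.6 CPM (SD, n = 20 each). Melk, a kinase abundant in dividing cells, fell by 0.86 (SE 0.12), from 98.0 ± 11.3 to 54.2 ± 20.3 CPM.

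Ccnb1 and Ccnb2 encode the cyclins that activate CDK1 at the start of mitosis. Ccnb1 ran from 76.0 to 122 CPM (median 105) in undifferentiated libraries and from 73.0 CPM in B3 to 193 CPM in D4 (median 118) at day 8. The groups overlapped, with 15 lines higher at day 8 and 5 lower. Its log2 fold change was 0.29 (SE 0.10, adjusted p = 0.00656). The rise was lost without C6 and D5 (0.21, adjusted p = 0.0545) and among the lines of letter A (0.19, adjusted p = 0.262) and D (0.40, adjusted p = 0.0847). Within letter B the value was -0.02 (adjusted p = 0.951), and within letter C it was 0.46 (adjusted p = 0.0213). Of the 31-base words in Ccnb1 exons, 45.9% also occur in annotated processed pseudogenes, so its reads may have been split between copies. Ccnb2 has little of this ambiguity. It ran from 102 to 149 CPM (median 120) before differentiation and from 49.8 CPM in B3 to 175 CPM in D4 (median 104) at day 8. At a log2 change of -0.14 (SE 0.09, adjusted p = 0.168) it did not pass the test, and 13 lines were lower and 7 higher.

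All 4 genes of the chromosomal passenger complex, which corrects faulty chromosome attachment and later acts at the furrow, fell. Birc5, which encodes survivin, ran from 149 to 286 CPM (median 199) and at day 8 from 47.0 CPM in D6 to 116 CPM in C3 (median 83.0). Its groups did not overlap, and the log2 fold change was -1.29 (SE 0.11, adjusted p = 2.88e-14). Incenp, the scaffold, fell by 1.07 (SE 0.10), and Cdca8, which encodes borealin, by 0.85 (SE 0.08). Aurkb, the kinase of the complex, ran from 107 to 161 CPM (median 136) and then from 46.4 CPM in B1 to 110 CPM in D4 (median 75.1). It fell by 0.83 (SE 0.09, adjusted p = 1.53e-11), and its groups overlapped by the top day 8 library.

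The 4 measured genes of the kinetochore also fell. Cenpe, the motor that carries chromosomes to the metaphase plate, ran from 196 to 295 CPM (median 240) and at day 8 from 60.3 CPM in B3 to 120 CPM in C5 (median 80.9). The groups lay far apart, and the log2 fold change was -1.56 (SE 0.08, adjusted p = 1.08e-20). Ndc80 and Nuf2 encode partners in the complex that binds microtubules. Ndc80 fell by 1.12 (SE 0.12), from 87.4 ± 9.05 to 40.2 ± 14.5 CPM, with a day 8 range of 19.9 CPM in B1 to 67.9 CPM in A3. Nuf2 fell by 0.80 (SE 0.10), from 112 ± 18.3 to 64.2 ± 17.4 CPM. Nuf2 was the fallen gene with a line against the trend, since D4 had 78.1 CPM before and 81.3 CPM at day 8. Cenpf, a large kinetochore protein, fell by 1.13 (SE 0.12), from 140 ± 35.9 to 63.9 ± 18.5 CPM, and D4 again changed little, with 131 and 125 CPM.

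Among the 5 genes of the spindle checkpoint and anaphase onset, all fell. Espl1 encodes separase, the protease that cuts cohesin at anaphase. Its level ran from 157 to 245 CPM (median 194) in undifferentiated cells and from 41.0 CPM in B1 to 102 CPM in D4 (median 55.9) at day 8. The groups did not overlap, and its log2 change, -1.65 (SE 0.10, adjusted p = 3.73e-18), was the second largest of the 33 in size. Bub1, a checkpoint kinase, ran from 120 to 169 CPM (median 139) and then from 30.3 CPM in B1 to 70.2 CPM in D5 (median 47.8). It fell by 1.58 (SE 0.09, adjusted p = 1.02e-18), again without overlap. The related Bub1b, which encodes BubR1, fell less, by 0.92 (SE 0.08), from 164 ± 16.6 to 86.8 ± 19.9 CPM. Ttk, the kinase MPS1 at the top of the checkpoint, fell by 0.89 (SE 0.09), from 64.6 ± 6.48 to 34.7 ± 9.34 CPM. Cdc20, which activates the anaphase-promoting complex, fell from 199 ± 28.9 to 99.5 ± 24.6 CPM, and 27.4% of its 31-base words also occur in pseudogenes.

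Of 5 genes for spindle motors and microtubule proteins, 4 fell. Kif4, a chromosome-bound kinesin, ran from 119 to 226 CPM (median 172) and at day 8 from 33.4 CPM in B3 to 90.3 CPM in C5 (median 61.9). It had the steepest fall of the role, a log2 change of -1.47 (SE 0.11, adjusted p = 6.12e-16) and no overlap. Tpx2, which activates Aurora A on the spindle, fell by 1.11 (SE 0.06). Kif11, the motor that pushes spindle poles apart, fell by 1.07 (SE 0.10), and Kif2c, a microtubule depolymerase, by 0.96 (SE 0.10). Nusap1, a microtubule bundler near chromosomes, did not pass the test. It ran from 68.8 to 109 CPM (median 90.4) in undifferentiated libraries and from 60.8 CPM in D1 to 141 CPM in D4 (median 84.5) at day 8, and its log2 change was -0.05 (SE 0.09, adjusted p = 0.585). In D4 its log2 difference was 0.71, and in B3 -0.55, so lines moved in both directions. In the annotation used, 172 exonic bases of Nusap1 overlap Oip5 on the opposite strand.

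The 6 genes of the central spindle and cytokinesis fell as well, and they held both the largest and the smallest of the falls. Kif23, the kinesin subunit of centralspindlin, ran from 146 to 234 CPM (median 182) and at day 8 from 23.2 CPM in B3 to 78.3 CPM in D5 (median 42.9). The groups were separated by a wide gap, and the log2 fold change was -1.94 (SE 0.12, adjusted p = 4.20e-18), which left 26.1% of the earlier mean. Racgap1, the other centralspindlin subunit, ran from 282 to 444 CPM (median 334) and then from 160 CPM in B6 to 365 CPM in D4 (median 224). Its groups overlapped, its log2 fold change was -0.51 (SE 0.10, adjusted p = 6.00e-06), and 70.1% of its mean was left. Among the 6 lines of letter D alone the Racgap1 value was -0.41 (adjusted p = 0.0692). The intervals of plus or minus 1 SE around these partner subunits were far apart, but the difference between them was not tested. Anln, the scaffold anillin of the furrow, ran from 391 to 535 CPM before and from 145 to 266 CPM at day 8, a log2 change of -1.18 (SE 0.05, adjusted p = 1.98e-22). Kif20a, a midzone kinesin, fell by 1.12 (SE 0.09). Ect2, which activates RhoA at the furrow, fell by 1.11 (SE 0.08), and Prc1, which bundles the midzone, fell by 0.93 (SE 0.07). Part of the exons of Kif20a (1271 bases, Cdc23), Prc1 (911 bases, Rccd1) and Kif4 (832 bases, Pdzd11) overlaps a gene on the other strand. How the counting used strand is not stated, and such reads may not be separated.

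**Figure D2:**
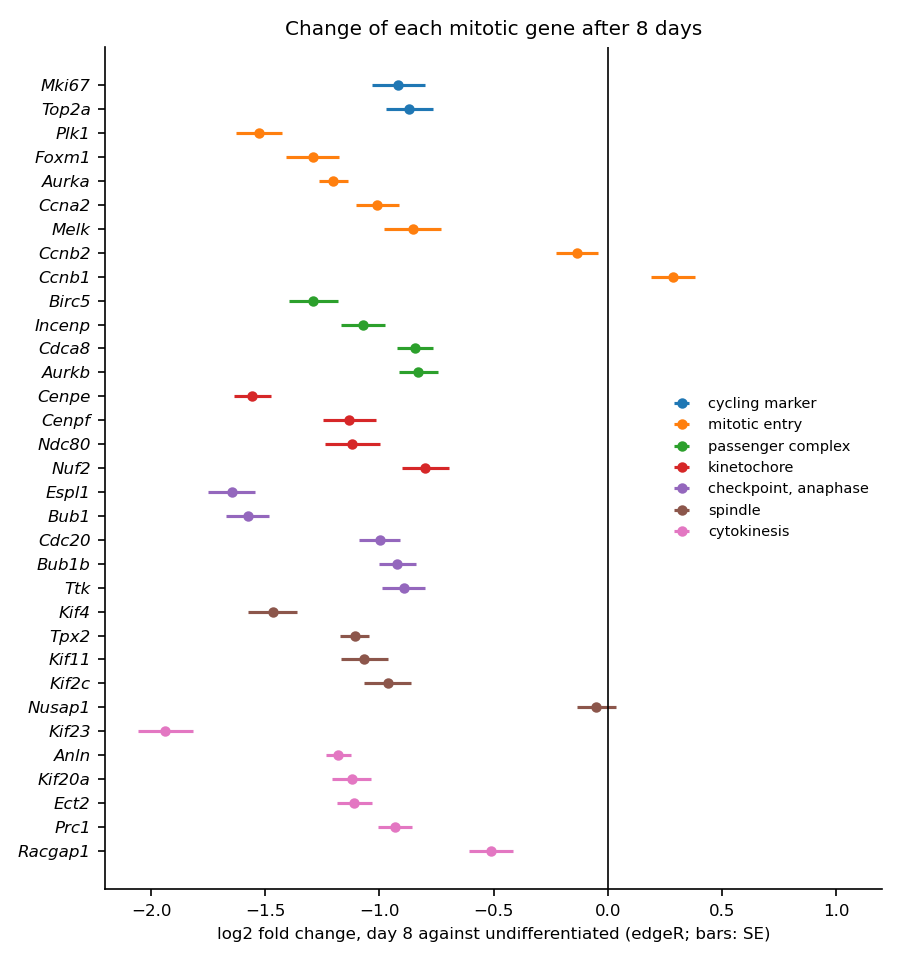
Log2 fold change of each of 33 mitotic genes, day 8 against undifferentiated, with bars for 1 SE and colours for the 7 roles. Values are from edgeR's quasi-likelihood test on 20 libraries per stage, without pairing by line. They run from -1.94 for Kif23 to 0.29 for Ccnb1, and Ccnb1, Ccnb2 and Nusap1 lie apart from the other 30.

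Medians of the log2 fold change differed little between roles. They were -0.89 for the cycling markers, -1.01 for mitotic entry, -0.96 for the passenger complex and -1.13 for the kinetochore. The spindle genes had -1.07 and the cytokinesis genes -1.12, and the checkpoint and anaphase genes lay between the passenger complex and mitotic entry. The spread within a role, such as Kif23 against Racgap1, was wider than that between role medians, except for the cycling markers, at -0.92 and -0.87. Per kilobase of exon, undifferentiated levels were highest for Cdc20 (106 CPM per kb), Ccna2 (87.6), Plk1 (85.1) and Top2a (84.9). They were lowest for Cenpf (9.06), Ttk (13.1) and Ndc80 (13.5). The length used is the union of all annotated exons of a gene, which can exceed the transcript made, so this order depends on the annotation.

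Undifferentiated lines were alike in the mean level of these genes, and day 8 lines were not. The mean log2 CPM over the 33 genes was 7.57 ± 0.07 (SD, n = 20) before differentiation, from 7.41 in C6 to 7.66 in C2. At day 8 it was 6.51 ± 0.35, from 5.90 in B3 to 7.05 in D4. The change within a line ran from -1.72 in B3 to -0.54 in D4, so that 30.3% of the level was left in B3 and 68.7% in D4. Between these, B1 kept 34.6%, D6 35.5% and B5 36.8%, while C3 kept 66.5% and C5 and D5 65.4% each. The order of lines before differentiation bore little relation to the order at day 8 (Pearson's r = -0.24, Spearman's rho = -0.25 over 20 lines). Lines of letter B were lowest on average at day 8, at 6.23 ± 0.35 (n = 5), and those of letter C highest, at 6.71 ± 0.24 (n = 5). The ranges of all 4 letters overlapped, and B4 lay among the 6 highest lines.

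**Figure D3:**
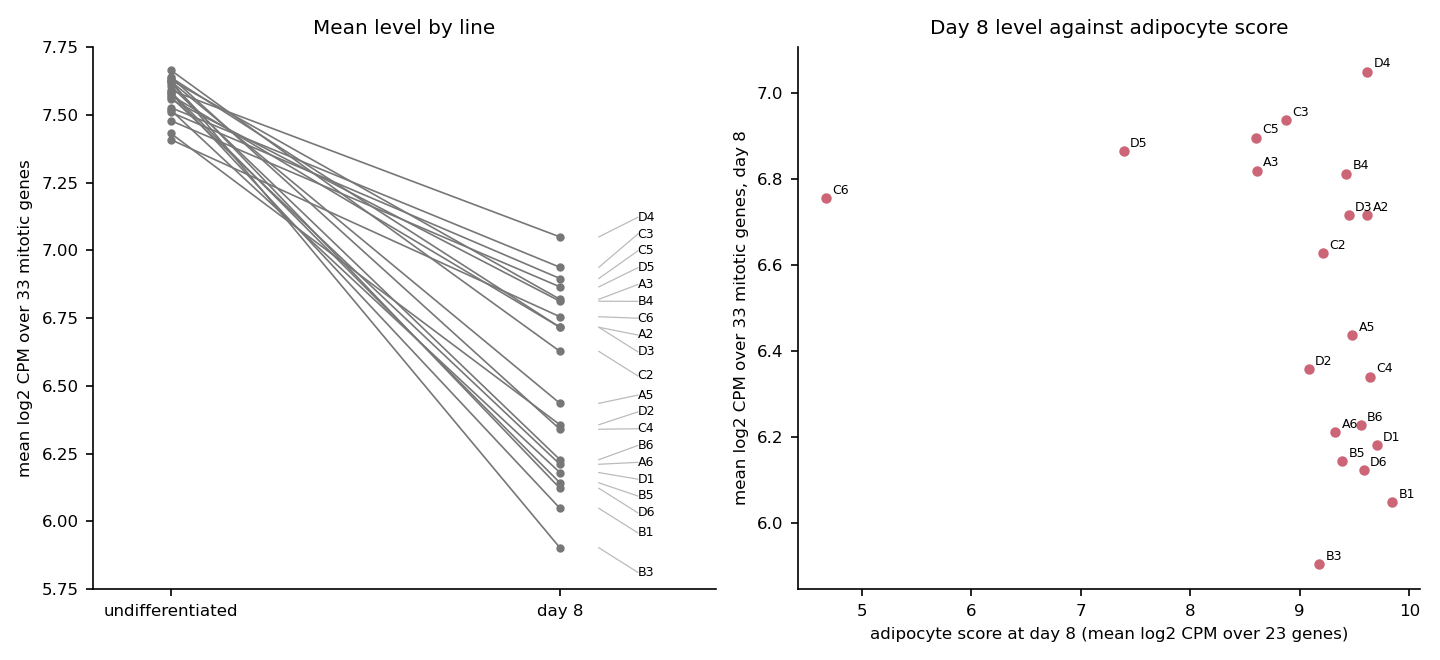
Left, mean log2 CPM over 33 mitotic genes for each of 20 lines before differentiation and at day 8, with a line joining the libraries of 1 line and its name at the right; right, the day 8 mean against the adipocyte score (mean log2 CPM of 23 adipocyte genes), 1 point per line. All lines fall from a narrow band, to between 5.90 (B3) and 7.05 (D4), and C6 and D5 stand apart at low scores.

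The differences between day 8 lines ran through nearly all the genes at once. In A3, B4, C3 and D4 all 33 genes were above their day 8 median, and in A6, B1 and D6 none was. B3 was among the 3 lowest lines for 26 of 33 genes and D4 among the 3 highest for 22. The standard deviation of log2 CPM across lines was larger at day 8 than before in 33 of 33 genes, against 67.7% of all genes tested. The coefficient of variation had a median of 10.8% before (7.49% to 25.7%) and 27.1% at day 8 (13.6% to 37.4%). D4 had the largest remaining mitotic level with a high adipocyte score of 9.62, close to the 9.59 of D6, which kept 35.5%.

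**Figure D4:**
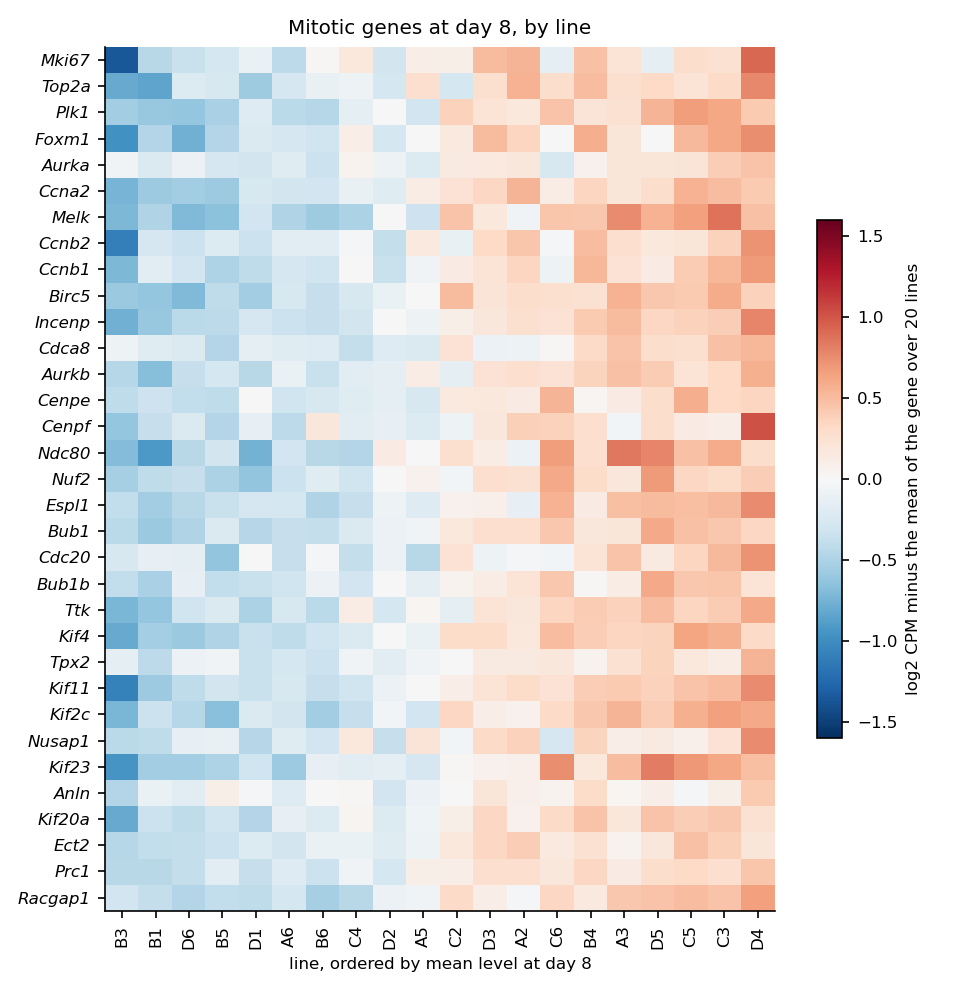
Day 8 log2 CPM of each mitotic gene (rows, by role) in each line (columns, ordered by the mean over 33 genes), minus the mean of the gene over 20 lines, with blue below and red above that mean. Columns are mostly of 1 colour, blue from B3 to A5 and red from C2 to D4, with exceptions such as Aurka and Nusap1 in C6.

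Pairs of mitotic genes moved together across lines at day 8 far more closely than before. Over the 528 pairs, the median Pearson correlation of log2 CPM across 20 lines was 0.20 in undifferentiated libraries and 0.82 at day 8. The median over pairs of all tested genes was near 0 at both stages, with 49.8% of those pairs positive before and 49.9% at day 8. Their spread also widened, with 5th and 95th percentiles of -0.55 and 0.56 before and -0.69 and 0.70 at day 8. Of the mitotic pairs, 70.3% were positive before differentiation, and at day 8 100% were, with the lowest at 0.46 (Ndc80 and Anln). Some pairs were close at both stages, such as Incenp and Kif11 with 0.92 and 0.98, and Bub1 and Bub1b with 0.83 and 0.94. Others changed sign, such as Birc5 and Cenpf with -0.69 before and 0.64 at day 8. All pairs share the same 20 libraries and their depth, and the median standard deviation of log2 CPM over the 33 genes was 0.16 before and 0.39 at day 8, whose part in the correlations was not tested. With plain library totals in place of TMM scaling the medians were 0.21 and 0.84.

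**Figure D5:**
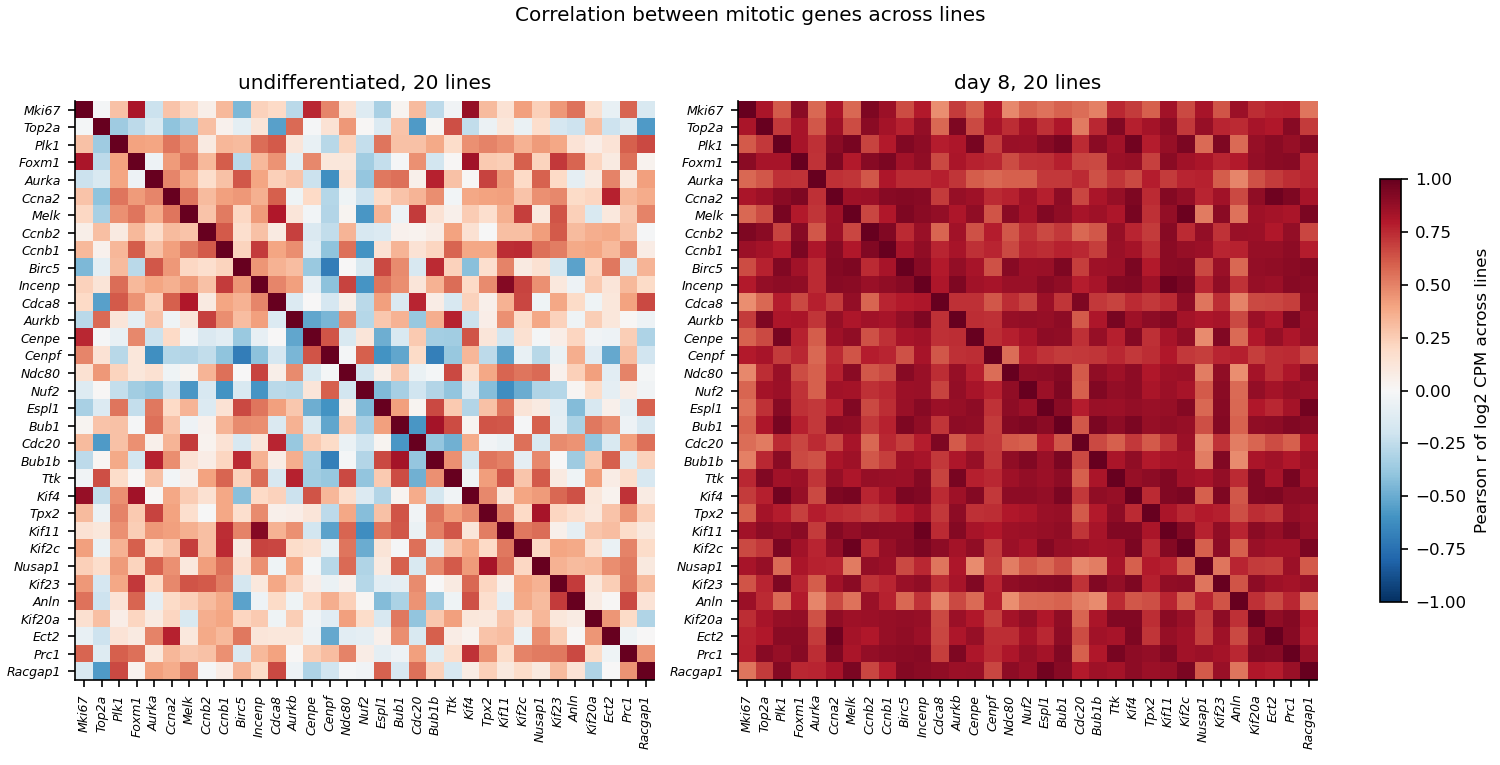
Pearson correlation of log2 CPM between each pair of 33 mitotic genes across 20 lines, in undifferentiated (left) and day 8 (right) libraries, from blue (-1) through white to red (1). The left matrix is mixed, with a median of 0.20, and the right one is positive throughout, with a median of 0.82.

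Within a gene, the level of a line before differentiation told little of its level at day 8. The correlation across 20 lines between the stages had a median of 0.18 over the 33 genes, from -0.71 (Kif4) to 0.56 (Birc5). In the test for any difference between lines over both stages together, edgeR's quasi-likelihood test called 0 of 33 genes, while 29.1% of all genes did. At an unadjusted p of 0.05, 6 of the 33 passed, and the smallest adjusted p was 0.0539 (Birc5). DESeq2 called 8 and limma-voom 1, and DESeq2 called 49.8% of all genes. That test asks for a line difference common to both stages, and with 1 library per line and stage a difference in the fall between lines cannot be tested.

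Genes outside the set were ranked by how closely their day 8 log2 CPM followed the mean of the 33 across 20 libraries. The 8 closest were Kif18b (r = 0.97), Kif20b (0.96), Kif22, Ckap2l, Cdca5 and Fam83d (0.95 each), and Ccnf and Kif18a (0.94 each). All but Ccnf belong to the list of other mitotic genes. Each of the 8 also fell, with log2 fold changes from -1.55 (Kif18a) to -0.78 (Cdca5). Of 14048 other genes, 183 (1.30%) had r above 0.8, and 115 had r below -0.8. Of the 183, 34 are on the lists of other mitotic genes or of DNA replication and nucleotide supply. The other cell cycle lists were not counted here. The mean of the other mitotic list followed that of the 33 with r = 0.96 (Spearman's rho = 0.95), and the mean of the DNA replication list with r = 0.67 (rho = 0.69). Without B3 and D4, the lines farthest from the median, the latter was 0.56.

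The day 8 level of each gene was then tested against the adipocyte score across lines. Of the 33 genes, 7 (21.2%) were lower in lines with a higher score and 0 were higher, while 20.5% of all genes passed in the negative direction, so the share did not stand apart from the background. The 7 were Cenpe, Ndc80, Nuf2, Bub1, Bub1b, Espl1 and Kif23. Their slopes were steepest for Ndc80, at -0.28 log2 CPM per unit of score (SE 0.09, adjusted p = 0.0122), and for Kif23, at -0.26 (SE 0.08, adjusted p = 0.0117). The shallowest was Cenpe, at -0.16 (SE 0.05, adjusted p = 0.0201). Slopes were below 0 in 30 of the 33, but these genes moved together across the day 8 lines, so their slopes are not independent of each other. Without the weakly converting lines C6 and D5, 12 (36.4%) passed, against 17.5% of all genes. These were Ndc80, Kif23, Bub1, Bub1b and Espl1 again, with Plk1, Melk, Birc5, Cdca8, Kif2c, Kif4 and Racgap1, from 6 of the 7 roles. The slopes were steeper without these lines, at -1.02 for Ndc80 (adjusted p = 0.0021) and -0.71 for Kif23 (adjusted p = 0.0282). Cenpe, at -0.43 (adjusted p = 0.0601), and Nuf2, at -0.40 (adjusted p = 0.142), no longer passed. Without C6 alone 16 passed, against 22.1% of all genes. With Adipoq, a single adipocyte gene, as the measure 0 passed, against 14.5% of all genes. Mki67 had a slope of 0.06 (SE 0.09, adjusted p = 0.624) over all lines and -0.000955 (adjusted p = 0.999) without C6 and D5. Aurka went from 0.01 (SE 0.05, adjusted p = 0.935) to -0.29 (adjusted p = 0.130). The mean over the 33 genes and the score had r = -0.36 and rho = -0.44 over 20 lines, and r = -0.43 and rho = -0.34 without C6 and D5. Without B3 and D4, the lines farthest from the median mitotic level, they were -0.47 and -0.70.

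The opposite question is whether the undifferentiated level went with the score reached later. Here 3 of 33 genes (9.09%) were higher in lines with a later high score, against 4.09% of all genes. These were Foxm1, with a slope of 0.17 (adjusted p = 0.0032), Kif4, with 0.13 (adjusted p = 0.0119), and Mki67, with 0.13 (adjusted p = 0.0325). The same 3 genes were closely related to each other in undifferentiated lines, with r of 0.82 for Mki67 and Foxm1, 0.84 for Foxm1 and Kif4 and 0.87 for Mki67 and Kif4. Without C6, 2 of the 33 passed, against 0.53% of all genes. The slopes were then larger, at 0.30 for Foxm1 (adjusted p = 0.0195), 0.29 for Mki67 (adjusted p = 0.0354) and 0.23 for Kif4 (adjusted p = 0.0690). Without C6 and D5 they were 0.29, 0.34 and 0.27, and none passed, with adjusted p of 0.165, 0.188 and 0.261. There 0% of all genes passed in the positive direction, and 1 gene of all passed in either direction against 906 with all lines.

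Other genes of the cell cycle, taken from lists, moved less uniformly. Of 84 tested genes on the list of other mitotic genes, 67 fell, 8 rose and 9 did not pass, with a median log2 fold change of -0.72. Gtse1, a spindle regulator, fell by 1.92 (SE 0.13), from 179 ± 27.0 to 47.2 ± 17.4 CPM, close to Kif23 in size. The kinesin genes Kif14 and Kif18a had log2 fold changes of -1.63 and -1.55. Ube2s, the enzyme that lengthens ubiquitin chains for the anaphase-promoting complex, rose by 3.39 (SE 0.07), from 7.52 ± 1.03 to 79.1 ± 10.4 CPM, in 20 of 20 lines. Pttg1, which encodes securin, the inhibitor of separase, rose by 1.48 (SE 0.09), from 20.6 ± 3.81 to 57.6 ± 11.3 CPM, while its partner Espl1 fell. The centromere gene Cenpm rose by 0.96 (SE 0.11).

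Of 47 genes for DNA replication and nucleotide supply, 26 fell, 15 rose and 6 did not pass, with a median of -0.21. Rrm2, a ribonucleotide reductase subunit, fell by 1.83 (SE 0.14), Mcm10 fell by 1.63 and Dbf4, the activator of the CDC7 kinase, fell by 1.26. Pcna, the sliding clamp, rose by 1.57 (SE 0.06), but 38.0% of its 31-base words occur in pseudogenes. Ung, a DNA glycosylase, rose by 1.26 and Rpa3 by 0.86. The same kind of overlap was 21.3% for Rpa3 and 13.8% for Rrm2. Of 25 G1 cyclins, E2F and RB family genes and cell cycle inhibitors, 10 rose and 10 fell, shares close to the 43.6% and 38.4% of all genes. The inhibitor Cdkn1c (p57) rose from 1.24 ± 0.88 to 81.0 ± 60.3 CPM, by 6.03 on the log2 scale (SE 0.36), Rb1 rose by 2.55 (SE 0.19) and Cdkn2d by 2.16 (SE 0.12). The cyclin genes Ccnd1 and Ccnd2 fell by 2.72 (SE 0.46) and 1.44 (SE 0.12), and Cdk6 fell by 1.65 (SE 0.24). Of 13 genes for MuvB and DREAM subunits, NF-Y and B-Myb, 6 rose and 5 fell. Mybl2 (B-Myb) fell by 1.75 (SE 0.13), E2f4 by 0.80 and Nfya by 0.53, while Lin52 rose by 1.91, Nfyc by 1.35 and Rbl2 (p130) by 1.03. Of the 31-base words of Nfyc 33.5% and of Mybl2 25.2% occur in pseudogenes.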

How the data were processed

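Poly(A) RNA of 20 lines at each of 2 stages was sequenced with a stranded kit in paired runs of 100 bp, per the labels' protocols. The authors deposited whole-number counts per gene symbol, 1 file per library, from STAR alignment to mouse build mm9 and HTSeq counting, per the submitters' processing notes. Tool versions, the annotation and whether counting used strand are not given in these sources. The mitotic genes and all other lists were chosen with earlier results of these data known.

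Symbols present in both stages were joined, and 125 that differ only in letter case were left out, as were the counter's tallies of unassigned reads. Reads without a gene were 7.17% of tallied reads undifferentiated and 4.77% at day 8. Reads without a unique alignment were 16.8% and 12.8%, and the part of this difference in genes with pseudogene copies was not tested. Stages were compared with edgeR 4.0.16 (quasi-likelihood test, TMM scaling, filterByExpr with a minimum count of 10), with p-values adjusted over all 14081 genes and called at 0.05 (13248 genes in the day 8 and 12409 in the undifferentiated test of the score). The main stage test had stage as its only term and did not use the pairing by line. The tests of the score used the libraries of 1 stage, and the line test used both stages. Log2 CPM used a prior count of 2. Alternatives were DESeq2 1.42.0, limma 3.58.1 voom, RLE factors, plain totals, no filter, lines left out, single letters, and genes without pseudogene copies (31-base words, 10% or more). The scripts were tested on simulated data. Named genes outside the set were the 3 most changed in each direction per list and the 8 most correlated at day 8. Libraries were paired by their line labels. Within a line, deviations from the stage means correlated at 0.0721 to 0.545, above 0.1 in 19 of 20. Values between different lines are not given beside these, so they do not test the pairing. Exon lengths, overlaps and pseudogenes came from GENCODE on GRCm38, and promoters from RefSeq on GRCm38.p6, a later build than that of the counts. Depth sets counting error, which intervals and limits cover alone. R 4.3.3 and Python 3.11.15 were used.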

Additional observations from a re-analysis of the deposited data

How the results depend on the processing

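The fall of the mitotic genes kept its call in 30 of 30 genes under DESeq2, RLE factors, limma-voom, plain totals, no filter, without C6 and D5, and within letters A, B and C, and in 29 within letter D, where Racgap1 missed the threshold. Of the 30, 28 were left to test without genes that have pseudogene copies, and all 28 fell. With line as a replicate block, 12057 genes changed against 11541, and no call of the 33 changed. The count of mitotic genes that rose, 1 in the main comparison, was 0 within letters A, B and D, without C6 and D5, and without genes with pseudogene copies; Ccnb1 reversed to -0.016 within letter B and Pdgfrb, a preadipocyte marker, to 0.22 within letter C. The line test called 7007 genes with DESeq2 against 4093, and 8 mitotic genes with DESeq2 and 1 each with RLE factors and limma-voom against 0. At day 8, 7 genes were negative with the score, 12 without C6 and D5, 16 without C6 alone and 0 with Adipoq alone, and genes positive in all numbered 2121 without C6 and D5 against 3341. Before differentiation, 507 genes were positive, against 290 with Adipoq alone, 878 with DESeq2, 65 without C6, 128 without D5 and 0 without both, and 399 were negative, against 32, 104 and 1 without C6, D5 and both. Mitotic genes positive there numbered 3, against 1 with Adipoq alone and 0 without C6 and D5. The cause of these changes was not tested. Leaving out C6 or D5 alone was chosen after seeing the data. Each measured mitotic gene had at least 509 counts in every library, and 1 library per line and stage leaves differences between single lines without a test.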

Other observations

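At day 8 the weakly converting line C6 was not high or low for all mitotic genes alike. Its Kif23 level was 74.4 CPM against a median of 42.9 over 20 lines, its Ndc80 level 60.0 against 39.4, its Nuf2 level 94.1 against 63.6 and its Cenpe level 117 against 80.9. Its Aurka level was 52.1 against 62.5, its Nusap1 level 69.3 against 84.5 and its Mki67 level 215 against 250. D5, the other weakly converting line, had the highest Kif23 level of all lines, 78.3 CPM, with Mki67 also at 215. D4, which converted well, had 62.2 CPM of Kif23 and 454 of Mki67. Racgap1, the partner of Kif23, was highest in D4 as Mki67 was, at 365 CPM, against 319 in D5 and 291 in C6. The order of these lines by Kif23 therefore differed from that by Mki67 or Racgap1, a description of single libraries with no test.

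Cdkn1a, which encodes the inhibitor p21 and was singled out after its values were seen, was lowest at day 8 in D5 (91.5 CPM) and C6 (98.4 CPM). Of the other lines with high mitotic levels it was 295 CPM in D4, 223 in C3, 182 in C5, 181 in A3 and 303 in B4. In the lines with the lowest mitotic levels it was 311 CPM in B3, 284 in B1, 366 in D6, 384 in B5 and 316 in D1. D4 and B4 of the first set lay within the range of the second. A6, the next line above the second set in mitotic level, had 205 CPM, below that range. These are values of single libraries with no test.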
